A study of Homo sapiens with 12 samples.

Results

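Aminoacyl-tRNA synthetases are the enzymes that join each amino acid to its own tRNA, the step that lets ribosomes read the genetic code. One set works in the cytosol, and a second, mostly encoded by separate nuclear genes, works in mitochondria. The genes were chosen by name, as the cytosolic and mitochondrial synthetases read by a transcript cluster with exactly 1 gene symbol. The 35 genes analysed, 19 cytosolic and 16 mitochondrial, were among 18417 genes in all. GARS1 and KARS1, counted as cytosolic, also encode the mitochondrial enzymes for their amino acids.

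RNA was measured on 12 Affymetrix Human Gene 1.0 ST arrays, 3 in each of 4 groups of HEK293T cells, a line from human embryonic kidney that carries the SV40 large T antigen. The groups were cells with shRNAs against UBE4B and LSD1 together (shUBE4B+shLSD1), against UBE4B alone (shUBE4B), against LSD1 alone (shLSD1), and with a nontargeting shRNA (shCTRL), all at 78 h. UBE4B is a ubiquitin ligase, and LSD1, encoded by KDM1A, is a histone demethylase. The shRNA plasmids were introduced transiently, so a dish can hold cells that took up no plasmid, and per the study's methods every group, controls included, also expressed a misfolding mutant of SOD1, which the labels do not name. Replicates are named biological in the sample titles, with nothing on whether they came from separate cultures, so p-values measure the spread between these arrays. Values are log2 signals as deposited by the authors. They depend on the probes, so signals of different genes are not compared.

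UBE4B fell by 1.42 in shUBE4B+shLSD1 and by 1.40 in shUBE4B on the log2 scale, and KDM1A fell by 1.12 in shUBE4B+shLSD1 and by 1.26 in shLSD1, all past an adjusted p of 0.05. Array medians were 7.00 to 7.06. Of 7 markers of HEK293-like cells, 6 had control means above 8 and PAX2 had 7.16, and their summed linear signal was 5432 to 6058 in shUBE4B+shLSD1, 5782 to 6038 in shUBE4B, 5629 to 5922 in shLSD1 and 5926 to 6343 in shCTRL. Against shCTRL only INA of them passed the test, lower by 0.35 in shUBE4B+shLSD1 and by 0.30 in shUBE4B, and NEFL passed between shUBE4B and shLSD1, higher by 0.37 in shUBE4B. Of 8 colon epithelium markers only EPCAM passed, lower by 0.58 in shUBE4B+shLSD1 and by 0.55 in shUBE4B, and their summed signal was 1186 to 1298 in shUBE4B+shLSD1, 1175 to 1254 in shUBE4B, 1266 to 1291 in shLSD1 and 1189 to 1284 in shCTRL. Of 3 measured blood cell markers none passed limma's adjusted or unadjusted test against shCTRL, and their summed signal was 118 to 128 in shUBE4B+shLSD1, 112 to 116 in shUBE4B, 109 to 120 in shLSD1 and 111 to 130 in shCTRL. Control means ran from 4.76 (CDH17) to 9.28 (CDX2) for the colon markers and from 4.47 (PTPRC) to 5.77 (CD3E) for the blood markers. Signals of different genes are not compared, so these levels do not identify the cells. No marker was listed at 0, and the part of any colon or blood cells in the results below was not tested.

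The synthetase genes called against shCTRL went in both directions, and a gene not called is not shown to be unchanged. In shUBE4B against shCTRL, FARSB and FARS2 rose and NARS1 and WARS1 fell. That is 4 of 35 genes, or 11.4%, where 10.1% of all genes passed the same test, 5.59% higher and 4.47% lower (limma over all 12 arrays, Benjamini-Hochberg adjusted p under 0.05 over 18417 genes). In shUBE4B+shLSD1 against shCTRL, FARSB rose and NARS1 and WARS1 fell, 3 of 35 genes or 8.57%, beside 7.56% of all genes, 3.74% higher and 3.83% lower. In shLSD1 against shCTRL none of the 35 passed, beside 0.82% of all genes. At an unadjusted p under 0.05 there were 6 of the 35 in shLSD1, beside 2465 of 18417 genes. By the same rule there were 9 in shUBE4B, beside 5057, and 10 in shUBE4B+shLSD1, beside 3818. Each share past the adjusted test lay near that of all genes. In RNA of whole dishes, less RNA in each cell and a change in fewer of the cells cannot be told apart. The 3 comparisons share their control arrays, so a chance deviation of those arrays enters all of them.

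**Figure D1:**
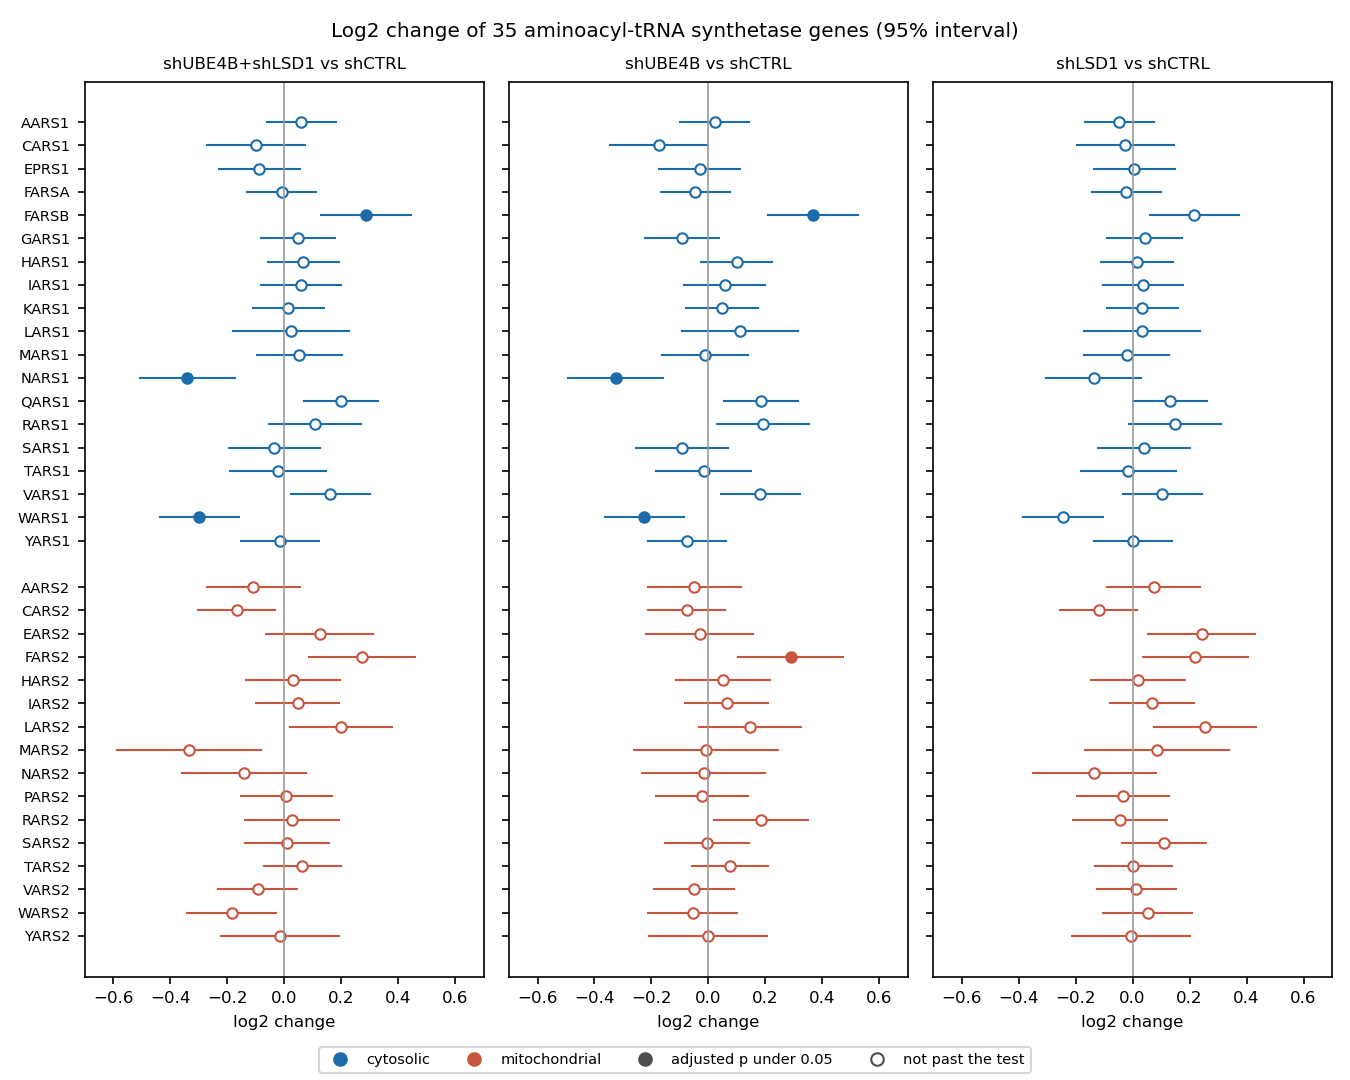
Log2 change (x axis) of 35 synthetase genes (rows) in shUBE4B+shLSD1, shUBE4B and shLSD1 against shCTRL, with 3 arrays a group. Points are estimates, lines 95% intervals not adjusted for the number of genes, and filled points have an adjusted p under 0.05, which FARSB, NARS1 and WARS1 reach in shUBE4B+shLSD1 and in shUBE4B, and FARS2 in shUBE4B.

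The phenylalanyl enzymes held both genes that rose. FARSB (transcript cluster 8059319, chromosome 2) encodes the beta subunit of the cytosolic enzyme. Its log2 signal was 11.27, 11.21 and 11.30 in shUBE4B+shLSD1, 11.36, 11.39 and 11.28 in shUBE4B, 11.16, 11.20 and 11.21 in shLSD1, and 10.96, 10.83 and 11.13 in shCTRL. All 9 knockdown arrays were above all 3 control arrays, and the control arrays had the widest spread (means of 11.26 ± 0.04, 11.34 ± 0.06, 11.19 ± 0.03 and 10.97 ± 0.15 in the same order, SD, n = 3 each). FARSB rose by 0.29 ± 0.07 (SE) in shUBE4B+shLSD1, or 1.22-fold (limma adjusted p = 0.0297), and by 0.37 ± 0.07 in shUBE4B, or 1.29-fold (limma adjusted p = 0.00837). The difference in shLSD1, 0.22 ± 0.07, did not pass (limma adjusted p = 0.205). The call in shUBE4B+shLSD1 was lost without shCTRL replicate 1 or 2, or without any 1 array of shUBE4B+shLSD1, with adjusted p of 0.0550 to 0.0993, while the call in shUBE4B held on leaving out each array in turn.

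The gene for the alpha subunit of the same cytosolic enzyme, FARSA, had a log2 signal of 11.28, 11.30 and 11.20 in shUBE4B+shLSD1, 11.25, 11.25 and 11.17 in shUBE4B, 11.25, 11.26 and 11.23 in shLSD1, and 11.25, 11.31 and 11.24 in shCTRL. The groups overlapped throughout. Its differences from shCTRL were -0.01 (95% interval -0.13 to 0.11) in shUBE4B+shLSD1, -0.05 (-0.17 to 0.07) in shUBE4B and -0.02 (-0.14 to 0.10) in shLSD1. FARSA had the smallest spread within groups of all 35 genes (SD 0.04). The difference between the changes of the 2 subunits was not tested.

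FARS2 (transcript cluster 8116724, chromosome 6), the phenylalanyl enzyme of mitochondria, had 8.26, 8.30 and 8.35 in shUBE4B+shLSD1, 8.31, 8.39 and 8.26 in shUBE4B, 8.25, 8.19 and 8.31 in shLSD1, and 8.24, 7.97 and 7.88 in shCTRL. The shUBE4B and shUBE4B+shLSD1 arrays were all above the controls, but shCTRL replicate 1 lay close to them. FARS2 rose by 0.29 ± 0.09 (SE) in shUBE4B (limma adjusted p = 0.0489), the call closest to the threshold. The differences in shUBE4B+shLSD1, 0.27 ± 0.09 (limma adjusted p = 0.0717), and in shLSD1, 0.22 ± 0.09 (limma adjusted p = 0.278), did not pass. The call in shUBE4B was lost on leaving out any 1 array other than shCTRL replicate 1, with adjusted p of 0.0600 to 0.160, and without shCTRL replicate 1 the difference in shUBE4B+shLSD1 passed (limma adjusted p = 0.0101).

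NARS1 (transcript cluster 8023481, chromosome 18), which charges the cytosolic asparagine tRNA, fell in both groups with UBE4B shRNA. Its log2 signal was 11.41, 11.35 and 11.45 in shUBE4B+shLSD1, 11.36, 11.53 and 11.36 in shUBE4B, 11.48, 11.72 and 11.62 in shLSD1, and 11.66, 11.84 and 11.73 in shCTRL. Every array of shUBE4B+shLSD1 and of shUBE4B was below every control array, while the shLSD1 arrays overlapped the controls. NARS1 fell by 0.34 ± 0.08 (SE) in shUBE4B+shLSD1, to 79.0% of the control signal (limma adjusted p = 0.0171), and by 0.32 ± 0.08 in shUBE4B, to 79.8% (limma adjusted p = 0.0196). In shLSD1 the difference was -0.14 ± 0.08 (limma adjusted p = 0.483). The call in shUBE4B was lost without shCTRL replicate 2, shUBE4B replicate 1 or shUBE4B replicate 3 (adjusted p of 0.0631 to 0.0781), and that in shUBE4B+shLSD1 without shUBE4B+shLSD1 replicate 2 (adjusted p = 0.0654). NARS2, its mitochondrial counterpart, had differences of -0.14, -0.02 and -0.13 in shUBE4B+shLSD1, shUBE4B and shLSD1, none past the test.

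WARS1 (transcript cluster 7981290, chromosome 14), the cytosolic tryptophanyl enzyme, also known to be induced by interferon gamma, had 10.26, 10.16 and 10.23 in shUBE4B+shLSD1, 10.32, 10.32 and 10.23 in shUBE4B, 10.24, 10.29 and 10.29 in shLSD1, and 10.56, 10.40 and 10.59 in shCTRL. All 9 knockdown arrays were below all 3 controls, and the 3 knockdown groups overlapped one another. WARS1 fell by 0.30 ± 0.06 (SE) in shUBE4B+shLSD1, to 81.3% of the control signal (limma adjusted p = 0.0133), and by 0.22 ± 0.06 in shUBE4B, to 85.6% (limma adjusted p = 0.0440). The difference in shLSD1, -0.24 ± 0.06, did not pass (limma adjusted p = 0.105), though it was the smallest adjusted p of the 35 genes in that comparison and passed without shCTRL replicate 2 (limma adjusted p = 0.0359). The call in shUBE4B was lost on leaving out any 1 array other than shCTRL replicate 2 and shUBE4B+shLSD1 replicate 2 (adjusted p of 0.0551 to 0.142), and that in shUBE4B+shLSD1 without shUBE4B+shLSD1 replicate 2 (adjusted p = 0.0556). WARS2, the mitochondrial enzyme, had differences of -0.18 (limma adjusted p = 0.156), -0.05 and 0.05 in shUBE4B+shLSD1, shUBE4B and shLSD1, none past the test.

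**Figure D2:**
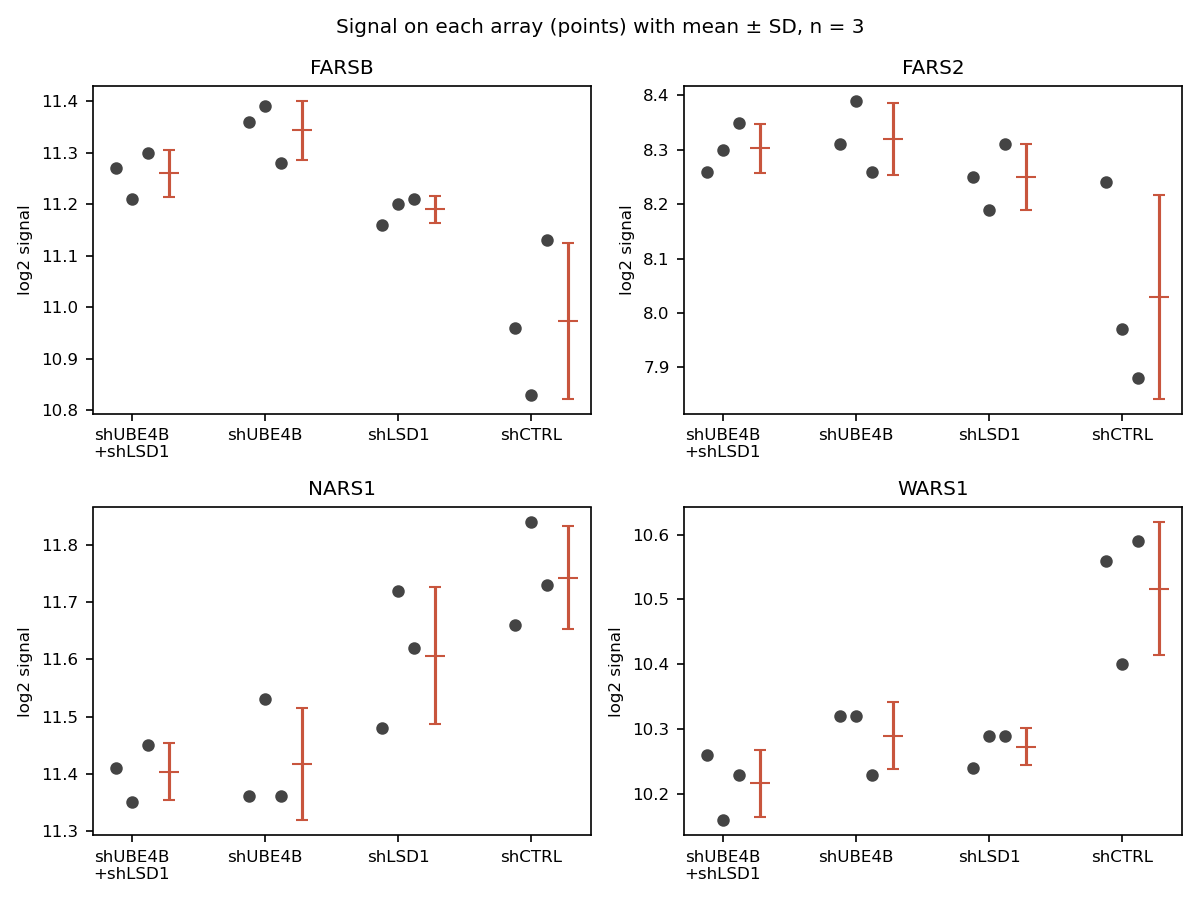
Log2 signal (y axes, each with its own range) of FARSB, FARS2, NARS1 and WARS1 on every array (points) by group, with the mean ± SD of 3 arrays beside them. The FARSB points of all 3 knockdown groups lie above those of shCTRL and the WARS1 points below, while for NARS1 the shLSD1 points overlap those of shCTRL.

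Many cytosolic synthetase genes are known targets of ATF4, the transcription factor of the amino acid response, which binds elements with the core TGATGNAA together with C/EBP proteins. The core was searched on both strands of the RefSeq promoters (GRCh38.p14, 250 bases before to 50 after each start), where 30 of the 35 genes matched and LARS1, VARS1, YARS1, AARS2 and VARS2 did not. It was present in 7 of 21 promoters of cytosolic genes (33.3%) and in 1 of 18 of mitochondrial genes (5.56%), beside 3.62% of all 35116 promoters. The windows are shown because they set the one called gene that holds the core, NARS1, beside genes that hold it and were not called. Each reads 5′ to 3′ on the strand of the gene, with the core in capitals.
AARS1, chr16:70289676-70289703, minus strand: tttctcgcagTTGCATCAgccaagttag
CARS1, chr11:3057408-3057435, minus strand: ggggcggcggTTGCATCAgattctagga
GARS1, chr7:30594835-30594862, plus strand: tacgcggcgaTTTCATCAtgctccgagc
IARS1, chr9:92293693-92293720, minus strand: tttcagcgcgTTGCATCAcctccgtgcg
MARS1, chr12:57488054-57488081, plus strand: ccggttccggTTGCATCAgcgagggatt
NARS1, chr18:57621805-57621832, minus strand: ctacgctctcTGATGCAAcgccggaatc
TARS1, chr5:33440957-33440984, plus strand: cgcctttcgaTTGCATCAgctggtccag
YARS2, chr12:32756077-32756104, minus strand: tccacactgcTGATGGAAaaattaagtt

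The same word, TTGCATCA or its reverse complement, stood in 6 of these 8 promoters. NARS1 was the one cytosolic gene to hold it in the forward orientation, starting at position 15 counted from the start, and its neighbours in this list began within 33 bases of the start except AARS1 at -187 and YARS2 at -197. Of the 7 cytosolic genes with the core, 1 was called in shUBE4B+shLSD1 and in shUBE4B, with median log2 changes of 0.05 and -0.02, and of the 9 with a promoter lacking it, 2 were called in each, with medians of 0.01 and 0.05. These small counts stand beside 7.56% and 10.1% of all genes called. The difference between genes with and without the core was not tested. The promoters of FARSB, FARS2 and WARS1 in this table did not hold these letters. A match is a description of the sequence and not a binding site.

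By compartment, the median log2 change of the 19 cytosolic genes was 0.02 in shUBE4B+shLSD1, -0.01 in shUBE4B and 0.02 in shLSD1, and that of the 16 mitochondrial genes was 0.01, -0.01 and 0.04, where the medians of all genes were -0.01, -0.03 and -0.01. The 3 cytosolic genes called in shUBE4B were 15.8% of their class and the 1 mitochondrial gene was 6.25%, on either side of the 10.1% of all genes. The difference between the classes was not tested. The median deviation of the cytosolic genes from the control mean ran between -0.04 and 0.07 in the 9 knockdown arrays, and between -0.07 in replicate 2 and 0.07 in replicate 3 of shCTRL. That of the mitochondrial genes ran between -0.07 and 0.06 in the knockdown arrays and between -0.02 and 0.01 in the shCTRL arrays.

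Among subgroups of the cytosolic enzymes, the 7 measured synthetases of the multisynthetase complex, an assembly that keeps several synthetases together (EPRS1, IARS1, KARS1, LARS1, MARS1, QARS1 and RARS1), held no call in any comparison with shCTRL. Of all genes, 7.56% were called in shUBE4B+shLSD1, 10.1% in shUBE4B and 0.82% in shLSD1. QARS1, which charges glutamine, came closest, with 11.84, 11.92 and 11.95 in shUBE4B+shLSD1, 11.88, 11.87 and 11.91 in shUBE4B, 11.80, 11.81 and 11.89 in shLSD1, and 11.66, 11.67 and 11.78 in shCTRL. All 9 knockdown arrays were above the controls, but differences of 0.20 ± 0.06 (SE) in shUBE4B+shLSD1 (limma adjusted p = 0.0618) and 0.19 ± 0.06 in shUBE4B (limma adjusted p = 0.0675) did not pass. Both passed without shCTRL replicate 3. IARS1, the isoleucyl enzyme, had 12.14, 12.13 and 12.22 in shUBE4B+shLSD1, 12.13, 12.20 and 12.15 in shUBE4B, 12.08, 12.19 and 12.17 in shLSD1, and 12.03, 12.06 and 12.22 in shCTRL. Its groups overlapped, and its 95% interval in shUBE4B was -0.08 to 0.20. Of the 13 cytosolic genes listed as induced by ATF4 in mouse cells, NARS1 and WARS1 fell and none rose in both groups with UBE4B shRNA, with medians of -0.01 in shUBE4B+shLSD1 and -0.03 in shUBE4B. Of the other 6, FARSB alone rose in both, with medians of 0.09 and 0.14. Of all genes, 3.83% were called lower and 3.74% higher in shUBE4B+shLSD1, and 4.47% lower and 5.59% higher in shUBE4B. Their medians were -0.01 and -0.03, and the difference between these subgroups was not tested.

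By the fold of the catalytic domain, with EPRS1 left out because it joins an enzyme of each class, 1 of 18 class I enzymes (WARS1) was called in shUBE4B+shLSD1 and in shUBE4B. Of 16 class II enzymes, 2 (FARSB and NARS1) were called in shUBE4B+shLSD1 and 3 (with FARS2) in shUBE4B. These counts stand beside 7.56% and 10.1% of all genes, and the difference between the classes was not tested.

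HARS1 and HARS2, the cytosolic and mitochondrial histidyl enzymes, are transcribed away from each other, and only 84 bases of the RefSeq sequence lie between their starts. That stretch (GRCh38.p14, chr5:140691371-140691454, plus strand) is shown because both genes share it.
HARS1 and HARS2: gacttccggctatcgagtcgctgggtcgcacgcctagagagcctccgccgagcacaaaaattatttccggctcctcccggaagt

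HARS1 had 11.23, 11.23 and 11.30 in shUBE4B+shLSD1, 11.29, 11.33 and 11.25 in shUBE4B, 11.24, 11.24 and 11.13 in shLSD1, and 11.21, 11.15 and 11.20 in shCTRL. HARS2 had 8.90, 8.91 and 8.70 in shUBE4B+shLSD1, 8.96, 8.88 and 8.73 in shUBE4B, 8.85, 8.87 and 8.76 in shLSD1, and 8.87, 8.77 and 8.78 in shCTRL. HARS1 stood apart from the controls in both groups with UBE4B shRNA and HARS2 overlapped them in every group. Of all genes, 21.9% stood apart from the controls in shUBE4B+shLSD1 and 30.3% in shUBE4B. The HARS1 difference in shUBE4B+shLSD1 was 0.07 (limma adjusted p = 0.584). Neither gene was called, and the intervals in shUBE4B were -0.03 to 0.22 for HARS1 and -0.11 to 0.22 for HARS2. In shUBE4B+shLSD1 they were -0.06 to 0.19 for HARS1 and -0.14 to 0.19 for HARS2.

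The remaining mitochondrial genes were not called against shCTRL. MARS2, the methionyl enzyme of mitochondria, varied most within groups (SD 0.17) and had 7.61, 7.92 and 7.85 in shUBE4B+shLSD1, 8.34, 8.15 and 7.87 in shUBE4B, 8.11, 8.19 and 8.35 in shLSD1, and 8.13, 8.01 and 8.24 in shCTRL. Its shUBE4B+shLSD1 arrays were all below the shLSD1 and shCTRL arrays and overlapped those of shUBE4B. The differences were -0.33 ± 0.12 (SE) against shCTRL (limma adjusted p = 0.108) and -0.42 ± 0.12 against shLSD1 (limma adjusted p = 0.0810), of which the second passed without shUBE4B replicate 3. In shLSD1 against shCTRL the leucyl gene LARS2 (0.25) and the glutamyl gene EARS2 (0.24) had the highest values, with limma adjusted p of 0.185 and 0.243.

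**Figure D3:**
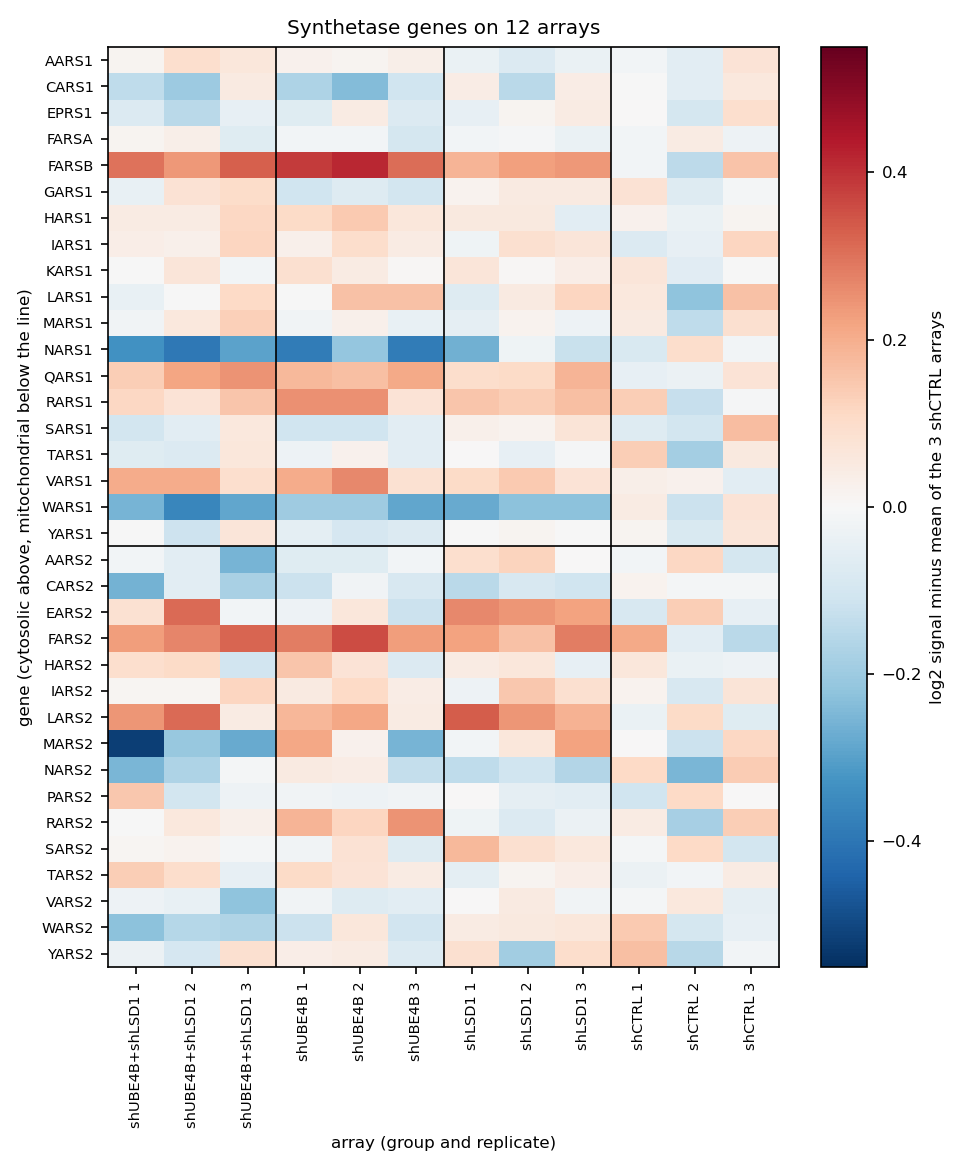
Log2 signal minus the mean of the 3 shCTRL arrays (colour) for 35 synthetase genes (rows, cytosolic above mitochondrial) on 12 arrays (columns, by group). The rows of FARSB, NARS1 and WARS1 keep their colour over the shUBE4B+shLSD1 and shUBE4B arrays, and shUBE4B+shLSD1 replicate 1 has the lowest MARS2 value, 7.61.

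Between the knockdown groups no synthetase gene was called by limma. This held for shUBE4B+shLSD1 against shUBE4B (0.147% of all genes called), for shUBE4B+shLSD1 against shLSD1 (2.79%) and for shUBE4B against shLSD1 (5.46%). At an unadjusted p under 0.05 limma gave 2, 4 and 4 of the 35 in the same order. Of all 18417 genes, 2401, 2831 and 3726 passed at that threshold. The interaction, which asks whether the double knockdown differs from the sum of the single ones, was called for 0 of the 35 and 0% of all genes by limma, with 2411 of all genes and 3 of the 35 at an unadjusted p under 0.05, FARSB among them (-0.30 ± 0.10, SE, limma adjusted p = 0.279). The NARS1 difference between shUBE4B and shLSD1 was -0.19 (95% interval -0.35 to -0.02, limma adjusted p = 0.190), so the difference between those knockdowns did not pass the test.

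For the synthetase genes the 95% interval reached a median of 0.16 to either side of the estimate, beside 0.18 for all genes, and the farthest end of any interval among the 35 was 1.502-fold in shUBE4B+shLSD1, 1.44-fold in shUBE4B and 1.35-fold in shLSD1. The median SD within groups was 0.08 for the 35 genes and 0.10 for all genes. Counted by arrays alone, 10 of the 35 genes (28.6%) did not overlap between shUBE4B+shLSD1 and shCTRL, beside 21.9% of all genes, 10 (28.6%) between shUBE4B and shCTRL, beside 30.3%, and 8 (22.9%) between shLSD1 and shCTRL, beside 16.6%.

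Of 14 measured partners in tRNA charging, only GATB, a subunit of the mitochondrial amidotransferase that makes glutaminyl-tRNA from glutamyl-tRNA, was called (7.14% of the list, beside 7.56% of all genes in shUBE4B+shLSD1 and 10.1% in shUBE4B). It had 7.91, 8.01 and 7.76 in shUBE4B+shLSD1, 7.93, 8.06 and 7.97 in shUBE4B, 8.27, 8.29 and 8.06 in shLSD1, and 8.37, 8.41 and 8.35 in shCTRL. All 9 knockdown arrays were below every control, and GATB fell by 0.49 ± 0.08 (SE) in shUBE4B+shLSD1 (limma adjusted p = 0.00252) and by 0.39 ± 0.08 in shUBE4B (limma adjusted p = 0.00957), while the difference of -0.17 ± 0.08 in shLSD1 did not pass (limma adjusted p = 0.376).

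Of 22 ATF4 pathway genes outside the synthetases, 6 fell and 2 rose in shUBE4B+shLSD1 (36.4%), and 10 fell and none rose in shUBE4B (45.5%), beside the same 7.56% and 10.1% of all genes. The list was chosen with earlier results of these data known, and its difference from the synthetases was not tested. None passed limma's adjusted test in shLSD1, with 5 at an unadjusted p under 0.05, beside 2465 of 18417 genes. The median log2 changes were -0.20 in shUBE4B+shLSD1, -0.26 in shUBE4B and -0.06 in shLSD1. In shUBE4B+shLSD1 the count was 5 without shCTRL replicate 1 or 3 and 4 without shUBE4B+shLSD1 replicate 1 or 2. With the methods' own test after Benjamini-Hochberg adjustment the count was 0 in both groups with UBE4B shRNA. Of all 18417 genes, only 48 passed it in shUBE4B+shLSD1 and 46 in shUBE4B. At an unadjusted p under 0.05 by that test, 7 of the 22 passed in shUBE4B+shLSD1, beside 2731 of all genes. In shUBE4B 13 of the 22 passed, beside 3499.

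PSAT1, an enzyme of serine synthesis, had 10.39, 10.46 and 10.46 in shUBE4B+shLSD1, 10.35, 10.43 and 10.33 in shUBE4B, 10.76, 10.80 and 10.82 in shLSD1, and 10.97, 10.96 and 11.09 in shCTRL. ASNS, which makes the asparagine that NARS1 charges, had 8.95, 8.98 and 9.18 in shUBE4B+shLSD1, 8.88, 9.04 and 8.91 in shUBE4B, 9.27, 9.24 and 9.36 in shLSD1, and 9.46, 9.19 and 9.60 in shCTRL. Both genes were below every control in both groups with UBE4B shRNA, and PSAT1 also in shLSD1, where its difference of -0.21 ± 0.06 did not pass (limma adjusted p = 0.120). PSAT1 fell by 0.57 ± 0.06 (SE) in shUBE4B+shLSD1 and by 0.63 ± 0.06 in shUBE4B, and ASNS fell by 0.38 ± 0.10 in shUBE4B+shLSD1 and by 0.48 ± 0.10 in shUBE4B. In shUBE4B+shLSD1 the amino acid transporter SLC7A5 rose by 0.68 and SHMT2, a mitochondrial serine enzyme, by 0.51, while ATF4 itself differed from shCTRL by -0.02 in shUBE4B+shLSD1 and -0.08 in shUBE4B, neither past the test.

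**Figure D4:**
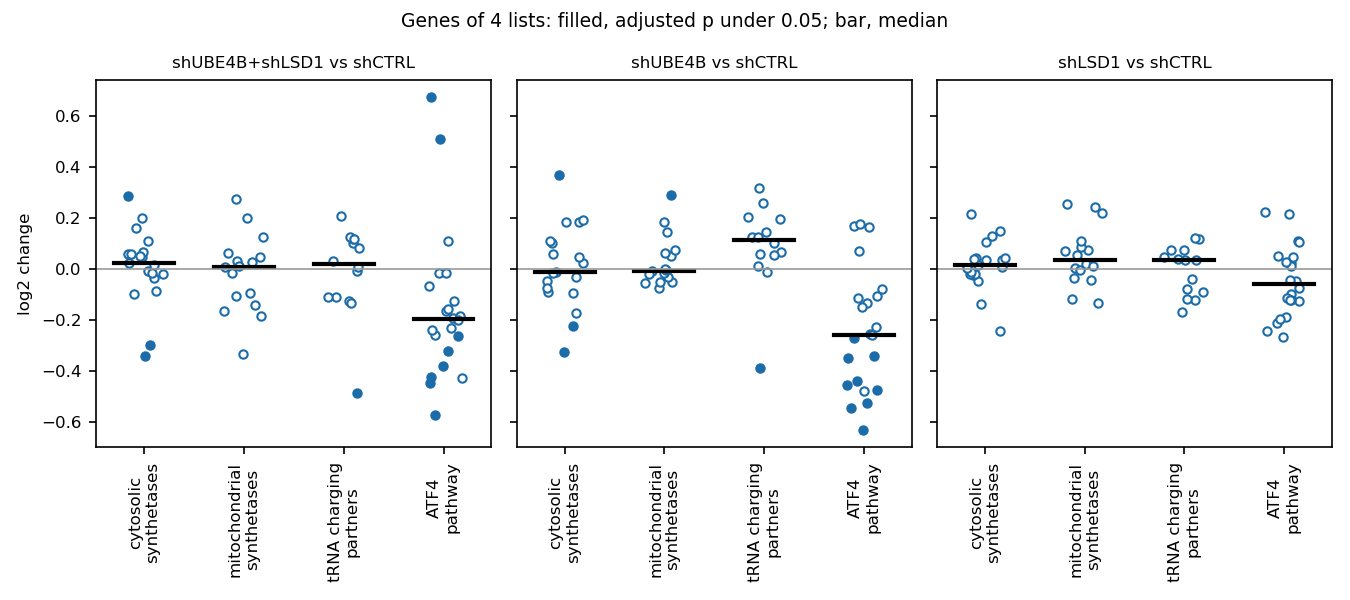
Log2 change (y axis) of each gene of 4 lists in shUBE4B+shLSD1, shUBE4B and shLSD1 against shCTRL, with filled points for an adjusted p under 0.05 and bars for medians. The synthetase medians lie between -0.01 and 0.04 and the ATF4 pathway medians at -0.20, -0.26 and -0.06.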

How the data were processed

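RNA of 12 HEK293T samples was hybridized to Affymetrix Human Gene 1.0 ST arrays. The values are log2 signals deposited by the authors, made with RMA (background correction, quantile normalization and a summary of probes) in Partek, on build hg19 per the submitters' notes, with versions not given in the sources used here. Such normalization hides a change in total RNA per cell. Precision is limited by having 3 arrays a group. Of 33297 transcript clusters, 19460 carried 1 symbol, 1754 several and 12083 are unnamed here. Symbols were updated with a RefSeq table (GRCh38.p14, used for names only), except 29 that were not updated, and each of 18417 genes was read from its brightest cluster. VARS1 and VARS2 each had 2 clusters of near-identical copies and are uncertain to that extent.

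The limma package 3.58.1 (R 4.3.3) fitted 4 group means with 8 residual and 5.13 prior degrees of freedom, and p-values of its moderated test were adjusted by Benjamini-Hochberg over 18417 genes, with a threshold of 0.05. The procedure was tested on simulated data. Values per array are given for called genes, for 4 members from the ends of the signal range in shCTRL (IARS1, NARS1, FARS2 and MARS2; a rule for display that compares no levels), and for FARSA, QARS1, HARS1 and HARS2, which were added after their values were seen. Up to 6 called genes of other lists could be named. Of 37 genes under the rule, 2 are not reported here. Members and lists were chosen with earlier results of these data known. Alternatives were leaving out each array, a replicate block, the arrays of a comparison alone, trend and robust settings, array weights, the mean of all clusters, median-centred arrays, another quantile normalization, removal of the 40% dimmest genes, the methods' t-test, and 1.2-fold with an unadjusted p under 0.05. Motifs were searched with Python 3.11.15 and pandas 2.3.3, and figures drawn with matplotlib 3.10.9.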

Additional observations from a re-analysis of the deposited data

How the results depend on the processing

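FARSB, NARS1, WARS1, FARS2, GATB, UBE4B and KDM1A changed direction under no alternative in the comparisons where they were called, and other genes were not followed. In shUBE4B against shCTRL, 4 synthetases were called, and 1 to 3 on leaving out 1 array, 2 with median-centred arrays, 5 with a replicate block, 6 with trend and robust settings or without the 40% dimmest genes, and 0 with the arrays of the comparison alone or with the methods' t-test (7 at an unadjusted p under 0.05 by each, and 2 by the t-test at the methods' thresholds of fold and p). Of all 18417 genes, 4306 passed unadjusted and 693 adjusted on the arrays of that comparison alone. By the t-test 3499 passed unadjusted, 46 adjusted and 1563 at the methods' thresholds. In shUBE4B+shLSD1 against shCTRL, 3 synthetases were called, and 0 to 4 on leaving out 1 array (0 without shUBE4B+shLSD1 replicate 2), 5 without the 40% dimmest genes, 5 at 1.2-fold with an unadjusted p, and 0 with the arrays of the comparison alone (6 unadjusted) or the methods' t-test (7 unadjusted, 4 at the methods' thresholds). Of all genes, 1695 passed at 1.2-fold with an unadjusted p. On the arrays of that comparison alone 2858 passed unadjusted and 420 adjusted. By the t-test 2731 passed unadjusted, 48 adjusted and 1211 at the methods' thresholds. In shLSD1 against shCTRL, 0 synthetases were called, and 1 (WARS1) with trend and robust settings, with array weights or without the dimmest genes, and 0 to 1 on leaving out 1 array. In shUBE4B+shLSD1 against shUBE4B, MARS2 was the 1 synthetase at 1.2-fold with an unadjusted p, beside 759 of all genes. In shUBE4B+shLSD1 against shLSD1, MARS2 was the 1 synthetase called with trend and robust settings, array weights, without the dimmest genes and at 1.2-fold. Leaving out 1 array gave 0 to 1. Of all genes, 1028 passed at 1.2-fold with an unadjusted p in that comparison. In shUBE4B against shLSD1, 2 synthetases were called with the arrays of the comparison alone and with array weights. There was 1 with a replicate block (EARS2), without the dimmest genes, with the methods' t-test and at 1.2-fold. Leaving out 1 array gave 0 to 1 (RARS2, without shCTRL replicate 2). Of all genes, 1774 were called on the arrays of that comparison alone and 663 by the t-test, and 1565 passed at 1.2-fold. For the interaction, 2 synthetases (FARSB and MARS2) passed 1.2-fold with an unadjusted p, beside 1768 of all genes. The 2 tests on the arrays of a comparison were not run for it. Among the alternatives, calls over all genes were counted only for the arrays of a comparison alone, the methods' t-test and the 1.2-fold rule. Some alternatives use fewer arrays or genes, and the cause of these differences was not tested.

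Arrays with the same replicate number deviated together in part, and the main fit held no replicate block. Of 18 same-numbered pairs, 10 had a correlation over 0.1 (range -0.08 to 0.33, against -0.34 to 0.25 for other pairs), and 9 of 12 arrays correlated best with their own number. The replicate block gave 4 calls in shUBE4B+shLSD1. In shUBE4B it lost FARS2 (limma adjusted p = 0.0565) though the count of calls rose.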
